A study of Mus musculus with 10 samples.

Results

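The genes described here are the 71 members of the synaptic vesicle and SNARE families: the synaptotagmins, synapsins, vesicle-associated membrane proteins (VAMPs), syntaxins, syntaxin-binding proteins, SNAP proteins, complexins, RIMs, Munc13 proteins, SV2 proteins and synaptogyrins. They were picked by gene symbol alone from a table of 52636 genes, so no measured value entered the choice. Of the 71, 67 were among the 18455 genes kept for testing by the filter on low counts. Snap91 was taken in by its symbol, but it encodes the clathrin adaptor AP180 and is no SNARE, and it is treated as a role of its own.

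RNA came from the barrel field of primary somatosensory cortex (S1BF), the area that maps the whiskers, of C57BL/6 mice on postnatal day 17. Loxp mice (n = 4 libraries) carried the floxed Rxra allele Rxratm1Krc and no Cre. Hetero mice (n = 2) carried Nex-cre and are labelled as the heterozygous conditional knockout, and cKO mice (n = 4) carried Nex-cre and are labelled as the conditional knockout. Rxra encodes retinoid X receptor alpha, a nuclear receptor that pairs with many others, and Nex-cre expresses Cre from the Neurod6 locus, which is active in excitatory neurons of the cortex. The tissue also holds interneurons, glia and vessel cells, in which that driver is not known to act widely. Nothing in the labels ties a library to a separate animal, and p-values therefore describe the spread between these samples alone.

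Transmitter release needs a vesicle to be filled, held near the active zone, primed and fused. Fusion is driven by SNARE proteins: a VAMP on the vesicle zips together with a syntaxin and a SNAP-25 protein on the plasma membrane, with Munc13 proteins and syntaxin-binding proteins to help assemble them. Synaptotagmins sense calcium, complexins clamp and then promote fusion, RIMs tie vesicles to calcium channels, and synapsins hold the reserve pool. Related syntaxins and VAMPs serve fusion inside the cell, at the Golgi and endosomes.

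Library totals ran from 19332990 to 26086337 counts, of which members held 1.65% to 1.87%. Excitatory neuron markers were detected 7 of 7 in every library, with a summed level of 8925 to 10427 CPM (reads of a gene relative to the library total, after TMM scaling). Rxra itself was 26.5 ± 4.43 CPM in Loxp (SD, n = 4), 24.8 ± 2.26 in Hetero (n = 2) and 30.7 ± 1.74 in cKO (n = 4). A count over the whole gene does not check a deletion of some exons. Neurod6 was 66.7, 55.7, 61.9 and 34.9 CPM in Loxp 1 to 4, 34.4 and 34.0 in the Hetero pair and 32.9, 22.9, 38.1 and 24.0 in the cKO libraries, so that the library labelled Loxp 4 lay among the Cre carriers. Library cKO 2 had the lowest summed level of the oligodendrocyte, striatal and interneuron marker lists and the highest of the astrocyte, oligodendrocyte precursor and microglia lists. Hetero 2 had 730 CPM of choroid plexus markers, against 2.79 to 22.2 CPM in the other libraries. Values by library are given in the order of the replicate numbers. In bulk tissue, fewer cells of a type and less RNA per cell cannot be told apart.

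Levels of the members spanned a wide range, from abundant transcripts to near absence. In FPKM (the authors' values, fragments per kilobase of gene scaled to library depth, which allow genes to be compared per length), 14 members averaged over 100, 22 lay between 10 and 100, 27 between 1 and 10, and 8 at or under 1. The 10 highest held 62.6% of the summed FPKM of the 71. That sum was 3427 to 4021 FPKM per library. Stx11, Stx19, Cplx4 and Syt8 were the members left untested, with counts of 0 to 7 in each library. Stx11 and Stx19 are syntaxins known from other tissues, and Cplx4 is a complexin of the retina.

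**Figure D1:**
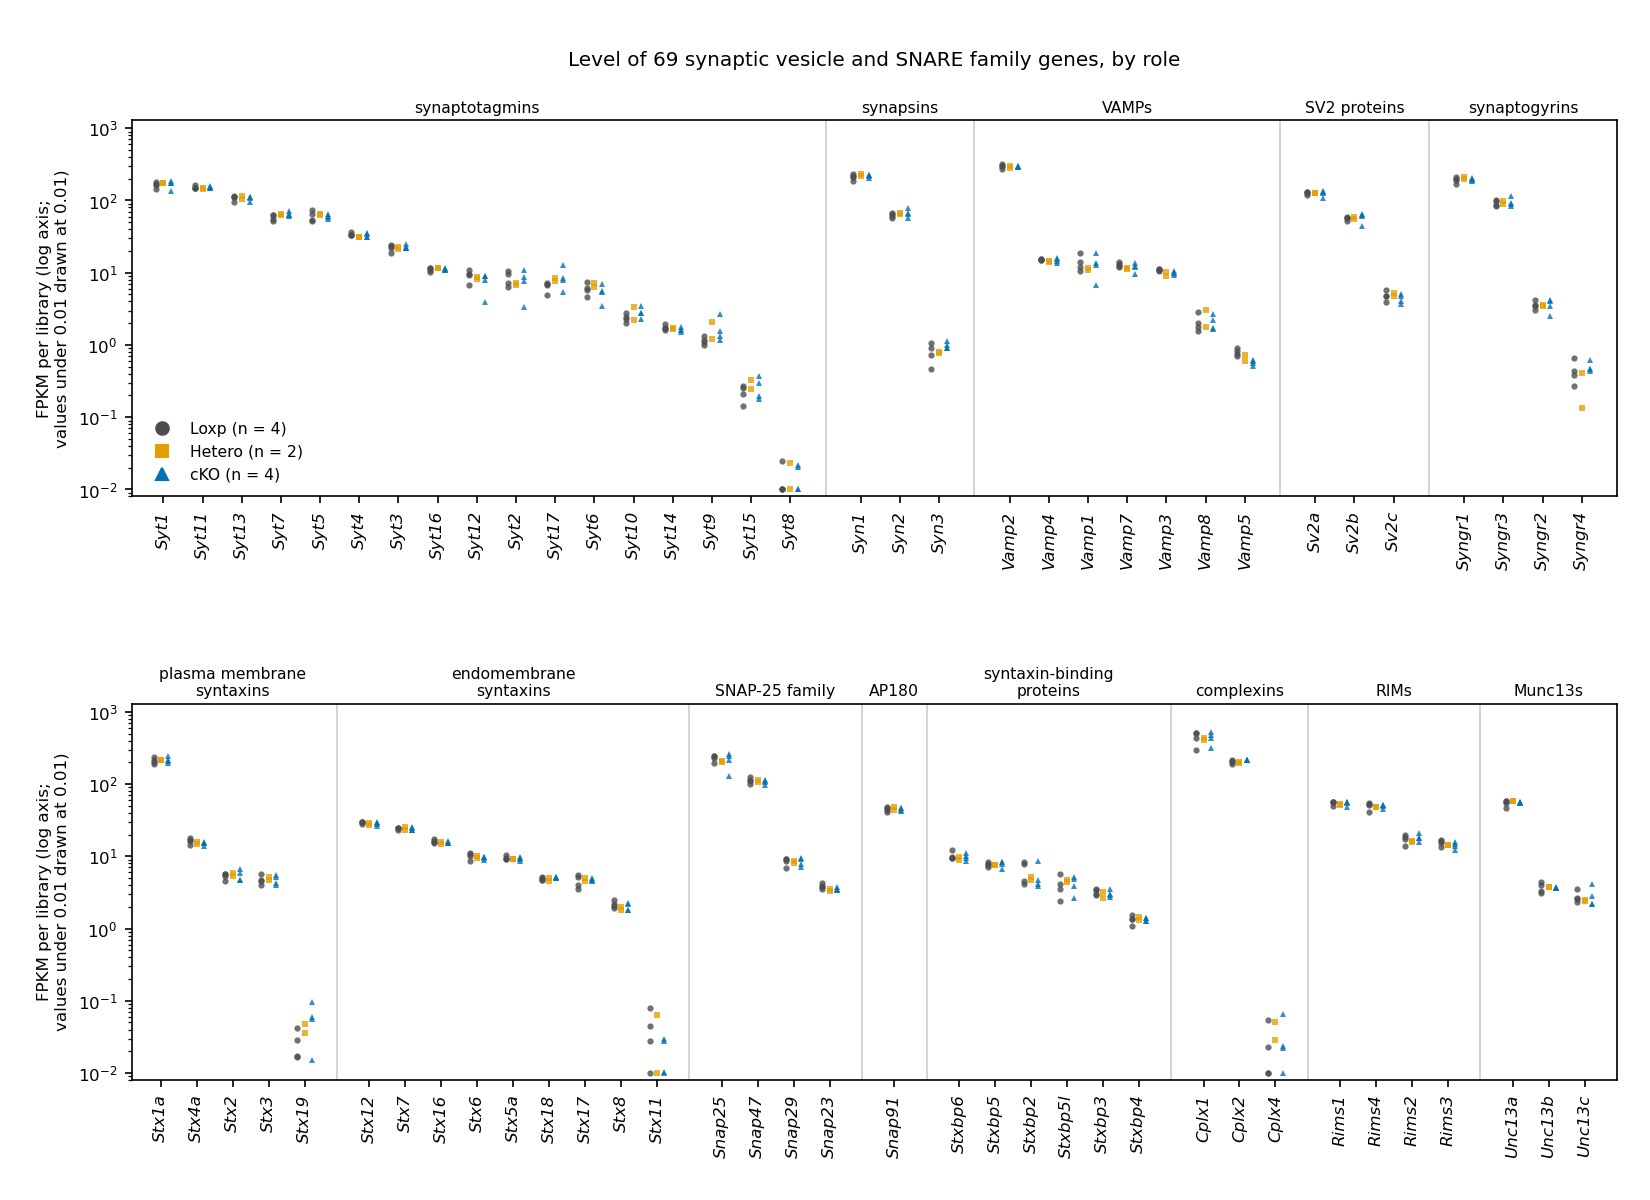
Level of 69 members in each library, in FPKM on a log axis, grouped by role. Grey circles are Loxp (n = 4), orange squares Hetero (n = 2) and blue triangles cKO (n = 4). Members differ over several orders of magnitude, from Cplx1 at a mean of 432 FPKM to members near 0, while the libraries of the 3 genotypes lie on top of each other for most genes.

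On the vesicle side, the synaptotagmins were the largest group, with 17 members and a summed level of 654 FPKM. Syt1, the calcium sensor of fast synchronous release, averaged 168 FPKM and made up 25.6% of the group. Syt11, which binds no calcium, followed at 151 FPKM and Syt13, also without calcium binding, at 108 FPKM. The sensor of slow and asynchronous release, Syt7, averaged 62.2 FPKM, and Syt2, the fast sensor of many inhibitory and hindbrain terminals, only 7.87 FPKM. The ratio of Syt2 to Syt1 in FPKM was 0.025 to 0.064 across the libraries.

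Vamp2, the vesicle SNARE of forebrain synapses, averaged 294 FPKM and held 84.7% of the VAMP sum. Vamp4, which serves Golgi and endosome traffic, was next at 14.96 FPKM. Vamp1, the paralog of Vamp2 that dominates in the hindbrain and in fast-spiking interneurons, averaged 12.9 FPKM. Syn1 averaged 218 FPKM and Syn2 64.9 FPKM, while Syn3, a synapsin of early development, averaged 0.870 FPKM. Among the vesicle membrane proteins with no SNARE motif, Sv2a averaged 127 FPKM and Sv2b 57.3 FPKM, and Syngr1 averaged 197 FPKM and Syngr3 93.9 FPKM.

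On the target membrane, Stx1a, the syntaxin of synaptic vesicle fusion, averaged 213 FPKM. Snap25, its partner, averaged 218 FPKM. Snap47, a SNAP-25 relative found in neurons, was at 109 FPKM. Endomembrane syntaxins were much lower, led by the endosomal Stx12 at 28.5 FPKM and Stx7 at 24.3 FPKM.

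Among the regulators, Cplx1 was the most abundant member of all at 432 FPKM, with Cplx2 at 208 FPKM. Of the syntaxin-binding group, Stxbp6 averaged 9.88 FPKM. Unc13a, or Munc13-1, the main priming factor of the forebrain, averaged 55.7 FPKM, ahead of Unc13b at 3.71 FPKM. Rims1 averaged 53.9 FPKM and Rims4, a short RIM, 49.5 FPKM. Snap91 averaged 44.9 FPKM.

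In cKO against Loxp, no member passed the test. At an adjusted p under 0.05 in edgeR's quasi-likelihood test, 0 of 67 members were called, where 0 of 18455 genes were (0%). At an unadjusted p under 0.05 there were 2 members, Syt9 higher and Vamp5 lower, which is 2.99% against 2.53% of all genes tested (0 members without Loxp 3 or without cKO 2, 1 without cKO 3 and 4 without cKO 4). For fits with a library left out, here and below, the share of all genes at that p was not taken. Of the 67 tested, 32 had a positive and 35 a negative log2 fold change. Their median was -0.0041, against 0.0003 for all genes tested, and 59 of 67 lay within 0.2 of 0 on the log2 scale (88.1%, against 75.9% of all genes). With 1 library left out at a time the median ran from -0.03 (without cKO 3) to 0.0098 (without Loxp 3), it was also above 0, at 0.0023, without cKO 2, and 0 members passed in any case.

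Of the core fusion genes, Stx1a and Vamp2 did not differ detectably between cKO and Loxp. Stx1a was 626, 504, 577 and 545 CPM across Loxp libraries and 520, 656, 553 and 571 CPM in cKO. Vamp2 was 1162, 1210, 1143 and 1041 CPM across Loxp libraries and 1096, 1140, 1133 and 1109 CPM in cKO. For both, the cKO values overlapped the Loxp values. The log2 fold changes were 0.03 for Stx1a (95% interval -0.16 to 0.23) and -0.03 for Vamp2 (-0.18 to 0.13), with edgeR adjusted p = 0.9998 for each.

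Nor was a difference detected for genes that control the timing of release. Syt1 was 1222, 1387, 1523 and 1421 CPM across Loxp libraries and 1449, 1124, 1566 and 1448 CPM in cKO, a log2 fold change of 0.0088 (95% interval -0.21 to 0.23). Unc13a gave 0.0094 (-0.16 to 0.18) and Rims1 -0.0046 (-0.18 to 0.17). Syn1 gave 0.03 (-0.14 to 0.20) and Sv2a -0.03 (-0.20 to 0.14). Snap25 and Cplx1 were less well determined, with log2 fold changes of -0.10 (-0.46 to 0.26) and 0.0023 (-0.36 to 0.36). Their SD of log2 CPM within genotypes, pooled over genotypes, was also larger, at 0.313 and 0.312. For Syt1, Unc13a, Rims1, Syn1 and Sv2a it was 0.096 to 0.162. The spread of Snap25 was widest in cKO, where cKO 2 was lowest at 896 CPM.

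**Figure D2:**
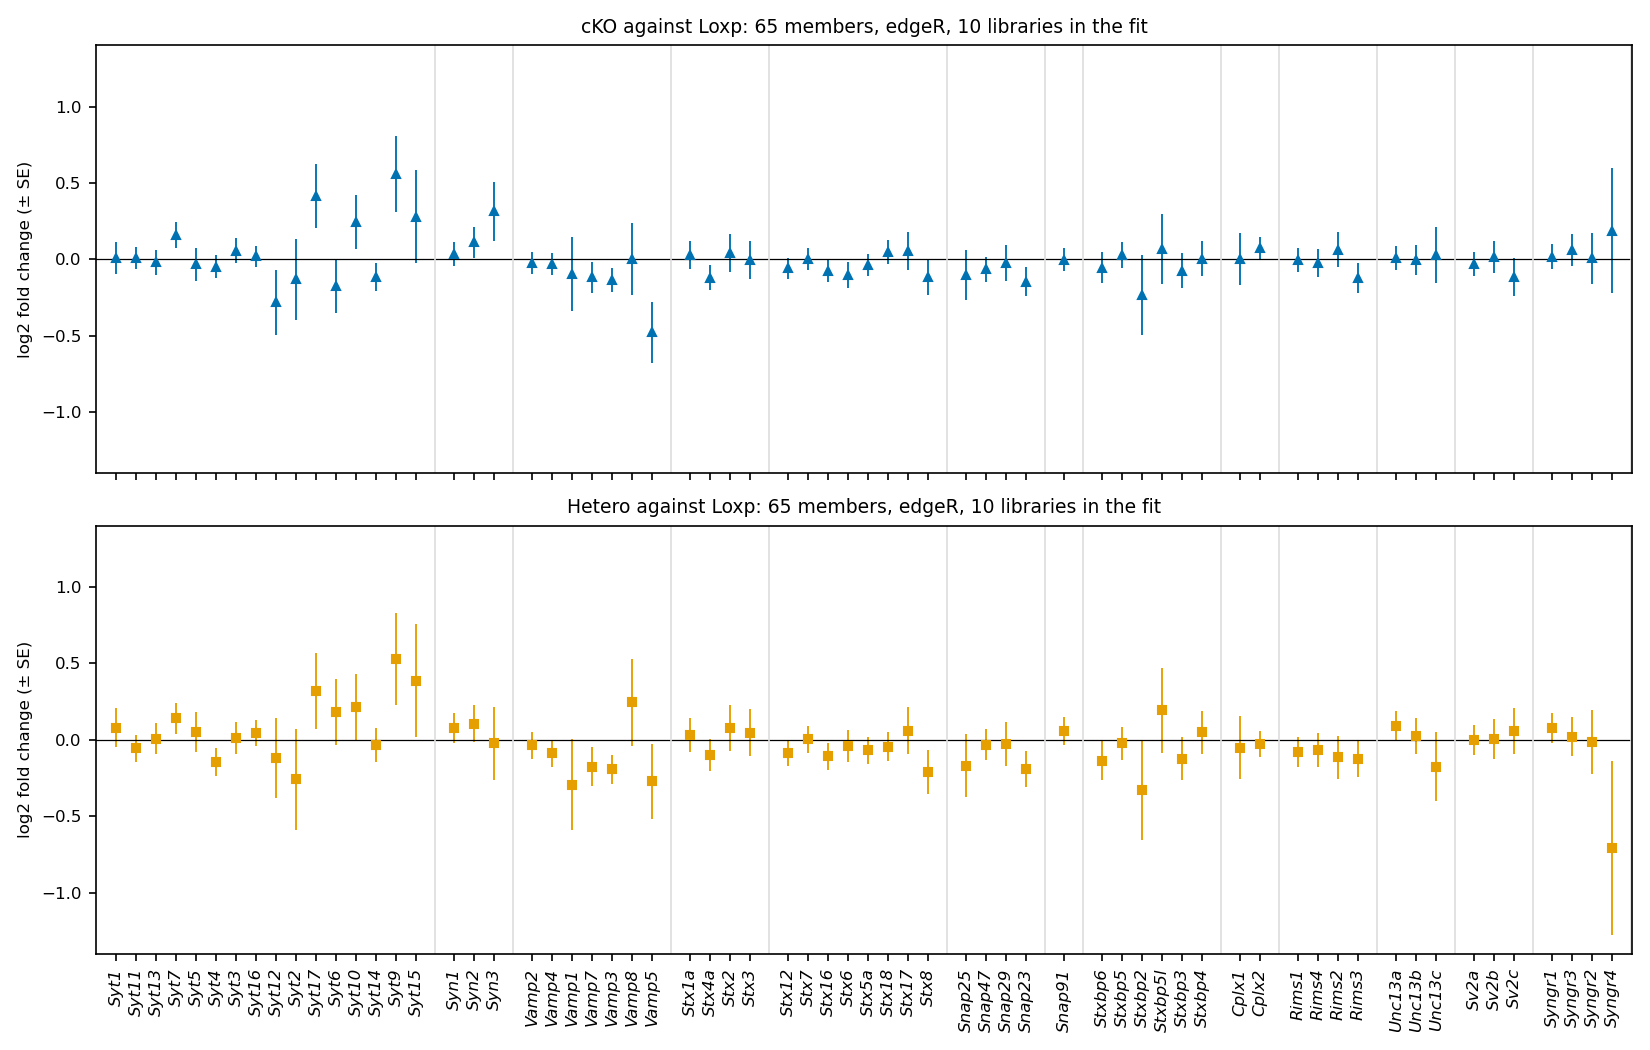
Log2 fold change of 65 tested members in cKO against Loxp (top) and Hetero against Loxp (bottom), with bars of ± 1 SE, from edgeR with all 10 libraries in the fit. Grey lines separate the roles, and both comparisons share the Loxp libraries. Most points lie near 0, between -0.14 and 0.16 for members over 10 FPKM in cKO against Loxp, and the largest excursions belong to members of low level.

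The members with the smallest p values in cKO against Loxp were mostly of low level. Vamp5, a VAMP of muscle and other cells outside neurons, was 2.02, 2.49, 2.28 and 1.91 CPM across Loxp libraries, 1.99 and 1.62 in the Hetero pair and 1.69, 1.51, 1.402 and 1.63 in the cKO libraries. Every cKO library lay below every Loxp library, which held for 1 of 67 members (1.49%) and 0.721% of all genes tested. Every cKO library lay above every Loxp library for 0 members and 0.818% of all genes, so that either held for 1.54% of all genes. The log2 fold change was -0.48 (SE 0.20, edgeR adjusted p = 0.9998), and the exact permutation p was 0.0286, the smallest that 70 arrangements of 4 against 4 libraries can give. Vamp5 had only 35 to 58 counts in each of these libraries. Its gene lies at chr6:72368794-72380468 (GRCm38, minus strand).

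Syt9, a synaptotagmin that serves as a fast calcium sensor in a subset of neurons, was 5.35, 4.35, 4.68 and 3.99 CPM across Loxp libraries, 4.90 and 8.32 in the Hetero pair and 5.40, 10.7, 6.27 and 4.72 in the cKO libraries. The high values came from single libraries, cKO 2 and Hetero 2, and the groups overlapped. At each replicate number the cKO value lay above the Loxp value, by little at number 1 (5.40 against 5.35 CPM). The log2 fold change was 0.56 (SE 0.25) in cKO against Loxp, and 0.26 without cKO 2. The exact permutation p with all libraries was 0.0571. In Hetero against Loxp it was 0.53 (SE 0.30), with 0.10 without Hetero 2 and 0.86 without Hetero 1.

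Syt17, a synaptotagmin relative found on internal membranes, was 36.5, 38.2, 35.6 and 25.6 CPM across Loxp libraries, 40.3 and 44.4 in the Hetero pair and 44.1, 67.9, 41.1 and 28.1 in the cKO libraries. Again cKO 2 stood highest, while cKO 4 lay under 3 of the Loxp libraries and above Loxp 4. At each replicate number the cKO value lay above the Loxp value, but the labels do not state that the numbers pair libraries. The fit and the permutation test given here take no account of the number. The log2 fold change was 0.42 (SE 0.21, exact permutation p = 0.286), and 0.16 without cKO 2. Syn3 was 5.83, 8.99, 11.4 and 12.9 CPM across Loxp libraries and 12.3, 11.2, 11.3 and 14.0 in cKO, with a log2 fold change of 0.31 (SE 0.19) that became 0.13 without Loxp 1 and 0.48 without Loxp 4. In the annotation 14.1% of the exon bases of Syn3 are shared with Timp3 on the other strand, and whether counting used strand is not given in the sources used here.

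The other members of smallest p had differences under 0.2 on the log2 scale. Syt7 gave 0.16 (SE 0.083), from 383, 406, 458 and 461 CPM across Loxp libraries and 453, 523, 474 and 455 CPM in cKO. Vamp3, or cellubrevin, the VAMP of recycling endosomes, gave -0.14 (SE 0.079). Snap23, the relative of Snap25 that serves exocytosis in most cells, gave -0.15 (SE 0.095), and Stx4a, its plasma membrane partner, -0.12 (SE 0.084). The exact permutation p values were 0.171 for Syt7, 0.0571 for Vamp3, 0.0571 for Snap23 and 0.171 for Stx4a. Without Loxp 2 the log2 fold change of Snap23 was -0.09 and that of Stx4a -0.18, and without Loxp 1 that of Stx4a was -0.07.

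By role, members of a group did not move far together. Of 16 tested synaptotagmins, 9 were higher and 7 lower in cKO than in Loxp, with a median log2 fold change of 0.0086. All 3 synapsins and all 4 synaptogyrins had positive fold changes, with medians of 0.11 and 0.04. The median of the synaptogyrins was -0.01 without Loxp 2 and -0.0014 without cKO 2, and that of the synaptotagmins ran from -0.02 (without cKO 3) to 0.05 (without cKO 2). All 4 members of the SNAP-25 family had negative fold changes, with a median of -0.08, but that of Snap25 was 0.07 without cKO 2. Of 7 VAMPs, 6 had negative fold changes, and the median of the 7 was -0.10, or -0.03 without cKO 2. In each group 0 members passed.

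In Hetero against Loxp, too, 0 of 67 members passed (0% of all genes tested did), and 0 had an unadjusted p under 0.05 (2.54% of all genes). The fold changes were positive for 29 members and negative for 38, with a median of -0.02 against -0.0068 for all genes, and from -0.04 (without Hetero 2) to 0.0046 (without Loxp 3) with 1 library left out at a time. Without Hetero 1, 1 member had an unadjusted p under 0.05. With 2 Hetero libraries the smallest possible exact p is 0.0667. This comparison and that of cKO share the Loxp libraries, so a like sign in both is no separate evidence.

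The Hetero and Loxp values did not overlap for 7 members, 10.4% of the 67 against 11.4% of all genes tested. Syt17 was higher in both Hetero libraries, and Syt4, Vamp4, Stx5a, Vamp7, Vamp3 and Snap23 were lower. Over all genes tested, 5.64% were higher and 5.77% lower without overlap. Vamp3 had the smallest p, with 31.4, 32.8, 30.4 and 32.7 CPM across Loxp libraries, 29.4 and 26.2 in the Hetero pair and 28.97, 31.2, 28.7 and 27.0 in the cKO libraries, and its log2 fold change was -0.19 (SE 0.098), with -0.11 without Hetero 2. Syt4, a synaptotagmin of dense core vesicles, was 132, 146, 130 and 132 CPM across Loxp libraries, and 120.6 and 123.4 in Hetero, a log2 fold change of -0.15 (SE 0.093). In the annotation 14.5% of its exon bases are shared with another gene.

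Of the rest named for Hetero against Loxp, Snap23 gave -0.19 (SE 0.12) and Vamp7, a VAMP of late endosomes and lysosomes, -0.18 (SE 0.13). The annotation places Vamp7 on a scaffold outside the assembled chromosomes and holds a pseudogene of its name. Stx8, a late endosomal syntaxin, gave -0.21 (SE 0.14), and -0.14 without Loxp 1. Syt7 gave 0.14 (SE 0.10), with 0.09 without Loxp 1, and Syt17 0.32 (SE 0.25). All had edgeR adjusted p = 0.9998.

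cKO against Hetero compares the groups labelled as conditional knockout and heterozygous conditional knockout, both with Nex-cre. Again 0 of 67 members passed (0% of all genes), and 0 had an unadjusted p under 0.05, against 1.74% of all genes. Fold changes were positive for 40 members, and 61 of 67 lay within 0.2 on the log2 scale (91.0%, against 73.5% of all genes). The median of the 67 was 0.01, against 0.0078 for all genes tested, and it was -0.0081 without Hetero 1 and 0.04 without Hetero 2. Without Hetero 1, or without cKO 3, 1 member had an unadjusted p under 0.05. The groups did not overlap for 7 members, which is 10.4% against 9.43%: Cplx2, Syt11, Stx18, Syn3 and Syngr4 were higher in cKO, and Unc13a and Unc13b lower. Over all genes, 4.9% were higher and 4.54% lower.

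Cplx2, the complexin of most excitatory cortical neurons, was 977 and 1013 CPM in Hetero and 1059, 1055, 1083 and 1069 CPM in cKO. The Loxp libraries, at 936, 1015, 1069 and 1030 CPM, overlapped both groups. The log2 fold change of cKO against Hetero was 0.10 (SE 0.085), with an exact permutation p of 0.0667, the smallest possible. Unc13a was 736 and 747 CPM in Hetero and 682, 715, 707 and 697 CPM in cKO, a log2 fold change of -0.08 (SE 0.098), while its Loxp values, at 598, 703, 736 and 746 CPM, spread more widely than either.

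Syt6 had the smallest p of this comparison, at 42.8 and 37.6 CPM in Hetero and 32.0, 20.6, 40.4 and 32.7 CPM in cKO, a log2 fold change of -0.35 (SE 0.22, exact permutation p = 0.333), and -0.20 without cKO 2. Syn3 gave 0.34 (SE 0.24). Rims2, an active zone RIM, gave 0.18 (SE 0.14), and 0.10 without cKO 4. Sv2c, the SV2 protein best known from the basal ganglia, gave -0.17 (SE 0.15), with -0.09 without Hetero 1 and -0.10 without cKO 2. Stx18, a syntaxin of the endoplasmic reticulum, gave 0.09 (SE 0.096), with 0.16 without Hetero 1 and 0.03 without Hetero 2. It shares 32.3% of its exon bases with other genes on the opposite strand, so its counts are uncertain. Syt4 gave 0.10 (SE 0.093), and 0.06 without cKO 3. Unc13c, the Munc13 best known from the cerebellum, gave 0.20 (SE 0.23), but -0.03 without cKO 2 and 0.31 without cKO 3.

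The genes that surround the families in the release cycle did not pass either. Over 7 lists with 87 genes, 86 were tested: 12 vesicle membrane and transport genes, 7 of SNARE disassembly and chaperones, 9 active zone scaffolds, 14 Rab3 and priming factors, 21 of vesicle endocytosis, 14 proton pump subunits and 9 of 10 other complexin, Munc13 and synaptotagmin-like genes. In cKO against Loxp 41 were higher and 45 lower, 0 passed and 0 had an unadjusted p under 0.05 (2.53% of all genes did), with list medians from -0.05 to 0.04. In Hetero against Loxp 44 were higher and 42 lower, and in cKO against Hetero 32 and 54, and in both 0 passed and 0 had an unadjusted p under 0.05.

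Of the genes in these lists, the 3 of smallest p in each comparison are given here. In cKO against Loxp, Slc17a8, the vesicular glutamate transporter of a few neuron types, gave a log2 fold change of -0.37 (SE 0.19). Cadps2, a priming factor of dense core vesicles, gave -0.23 (SE 0.13), and Ppfia2, an active zone scaffold, -0.13 (SE 0.082). In Hetero against Loxp, Esyt3 gave 0.53 (SE 0.29), Cadps2 -0.28 (SE 0.16) and the calcium sensor Doc2a 0.33 (SE 0.19). In cKO against Hetero, Slc17a8 gave -0.48 (SE 0.23), Doc2a -0.28 (SE 0.19) and its relative Doc2b 0.29 (SE 0.22).

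In the authors' deposited table, too, 0 of 71 members passed in cKO against Loxp or in Hetero against Loxp. For cKO against Loxp the authors' deposited table has 0 of 29220 genes passing. Syt9 alone (1 member) had, in the authors' deposited table, an unadjusted p under 0.05 in cKO against Loxp (log2 fold change 0.56, p = 0.0228). The authors' deposited table has 2 such members in Hetero against Loxp, Syt17 (0.32, p = 0.0402) and Syt9 (0.53, p = 0.0431). There the authors' deposited table calls 25 of 27904 genes with an adjusted p. The share of all genes at the authors' unadjusted p under 0.05 was not taken. These member counts therefore cannot be read as a result about the members.

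Some members varied widely between libraries of the same genotype. The SD of log2 CPM within genotypes had a median of 0.150 over the 67 members, against 0.204 over all genes tested, and it exceeded 0.3 for 15 members (22.4%, against 33.5% of all genes). Those 15 were Syt2, Stxbp2, Vamp1, Syngr4, Stxbp5l, Syt12, Syt15, Syt9, Syt17, Vamp8, Syn3, Syt6, Unc13c, Snap25 and Cplx1. Most are of low level, but Snap25 and Cplx1 are among the most abundant members.

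**Figure D3:**
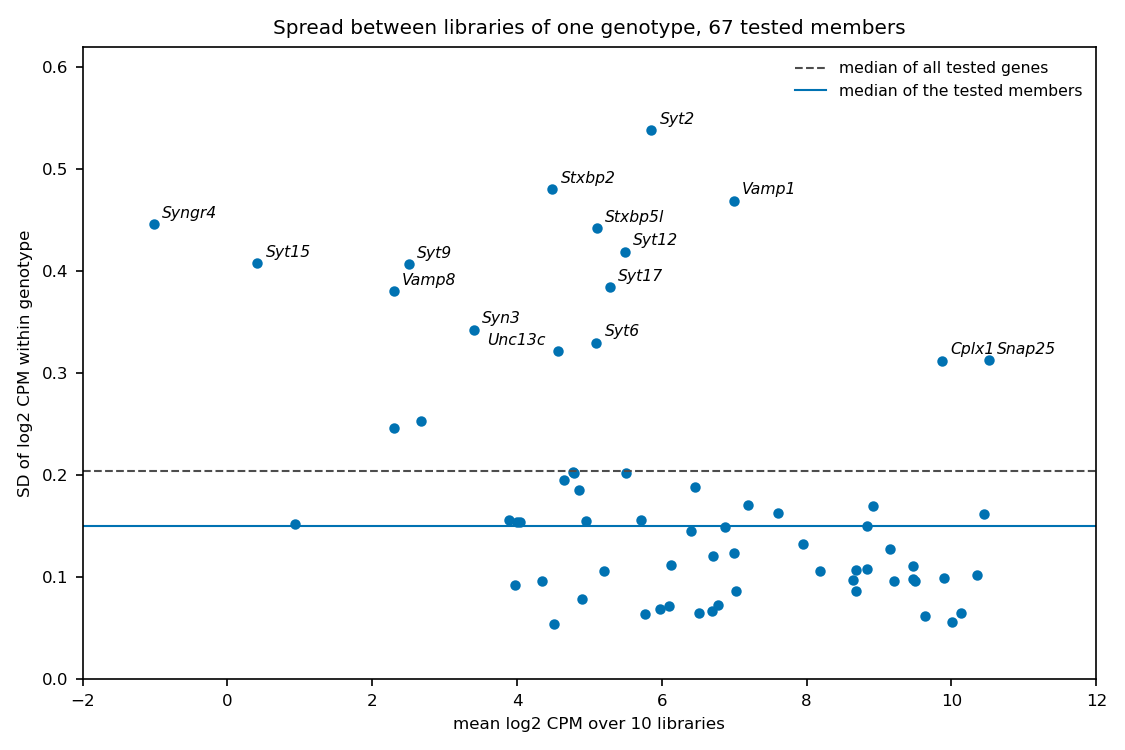
SD of log2 CPM within genotypes (vertical) against mean log2 CPM (horizontal) for the 67 tested members. The blue line is the median of the members (0.150) and the dashed line that of all genes tested (0.204), and the named genes have an SD above 0.3. Snap25 and Cplx1 stand out at the high end of expression, and Syt2 and Vamp1 have among the highest SDs.

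Library cKO 2 was the lowest of the 10 for 19 of 67 members (28.4%, against 19.1% of all genes tested) and the highest for 11 (16.4%, against 19.97%). Loxp 3 was highest for 14 members (20.9%, against 8.66% of all genes) and lowest for 1 (1.49%, against 8.41%). Snap25 was 1550, 1338, 1688 and 1679 CPM across Loxp libraries, 1354 and 1428 in the Hetero pair and 1471, 896, 1688 and 1772 in the cKO libraries. The other 3 cKO libraries lay above both Hetero libraries. The log2 fold change of cKO against Loxp was -0.10 with all libraries, 0.07 without cKO 2 and -0.17 without Loxp 2, the lowest Loxp library. No fit left out both.

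Vamp1 and Syt2, both known as the isoforms of fast-spiking inhibitory cells in cortex, ordered the libraries alike. Vamp1 was 122, 108, 146 and 190 CPM across Loxp libraries, 110 and 120 in the Hetero pair and 132, 68.2, 138 and 190 in the cKO libraries. Syt2 was 55.9, 49.3, 74.5 and 79.7 CPM across Loxp libraries, 52.4 and 56.2 in the Hetero pair and 58.2, 25.7, 68.1 and 85.0 in the cKO libraries. In both, cKO 2 was lowest, Loxp 2 next, and cKO 4 and Loxp 4 highest. Against Loxp, cKO gave log2 fold changes of -0.10 (SE 0.24) and -0.13 (SE 0.27), with 0.12 and 0.12 without cKO 2, 0.09 and -0.0093 without Loxp 4, and -0.33 and -0.35 without cKO 4.

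Cplx1, the complexin of inhibitory and some excitatory cells, was 951, 662, 1115 and 1105 CPM across Loxp libraries, 883 and 966 in the Hetero pair and 953, 694, 1037 and 1157 in the cKO libraries. Here Loxp 2 was lowest and cKO 2 next. Syt12 was also lowest in cKO 2, at 22.1 CPM, and next in Loxp 2, at 37.5 CPM. In the annotation 17.15% of the exon bases of Syt12 are shared with a gene on the opposite strand. In the opposite sense, Syt17 was highest in cKO 2 and lowest in Loxp 4 and cKO 4. Stxbp2, known from epithelial and blood cells, was 32.5, 35.1 and 35.4 CPM in Loxp 1, Loxp 4 and cKO 4 and 16.2 to 21.5 CPM in the other 7 libraries.

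The summed level of interneuron markers also varied between libraries. The 7 listed genes were all detected in every library, and their sum was 686 to 975.4 CPM across Loxp libraries, 835 to 885 in Hetero and 680 to 1018 in cKO. Its lowest values fell in cKO 2 and Loxp 2 and its highest in cKO 4. Among Loxp libraries it was highest in Loxp 1, where Vamp1 and Syt2 lay below Loxp 3 and Loxp 4. In cKO against Loxp, 3 of the 7 genes had a positive log2 fold change and 4 a negative one, Pvalb among the latter (-0.08, SE 0.34). Of the 7, Pvalb alone is given by library. Pvalb, the marker of fast-spiking cells, was 64.8, 45.9, 70.6 and 79.3 CPM across Loxp libraries, 46.8 and 54.3 in the Hetero pair and 59.8, 18.1, 73.3 and 94.6 in the cKO libraries. The 5 striatal markers summed to 128 CPM in Loxp 2 and 109 in cKO 2, against 292 to 688 in the other libraries. The part of these markers in the member values was not tested.

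**Figure D4:**
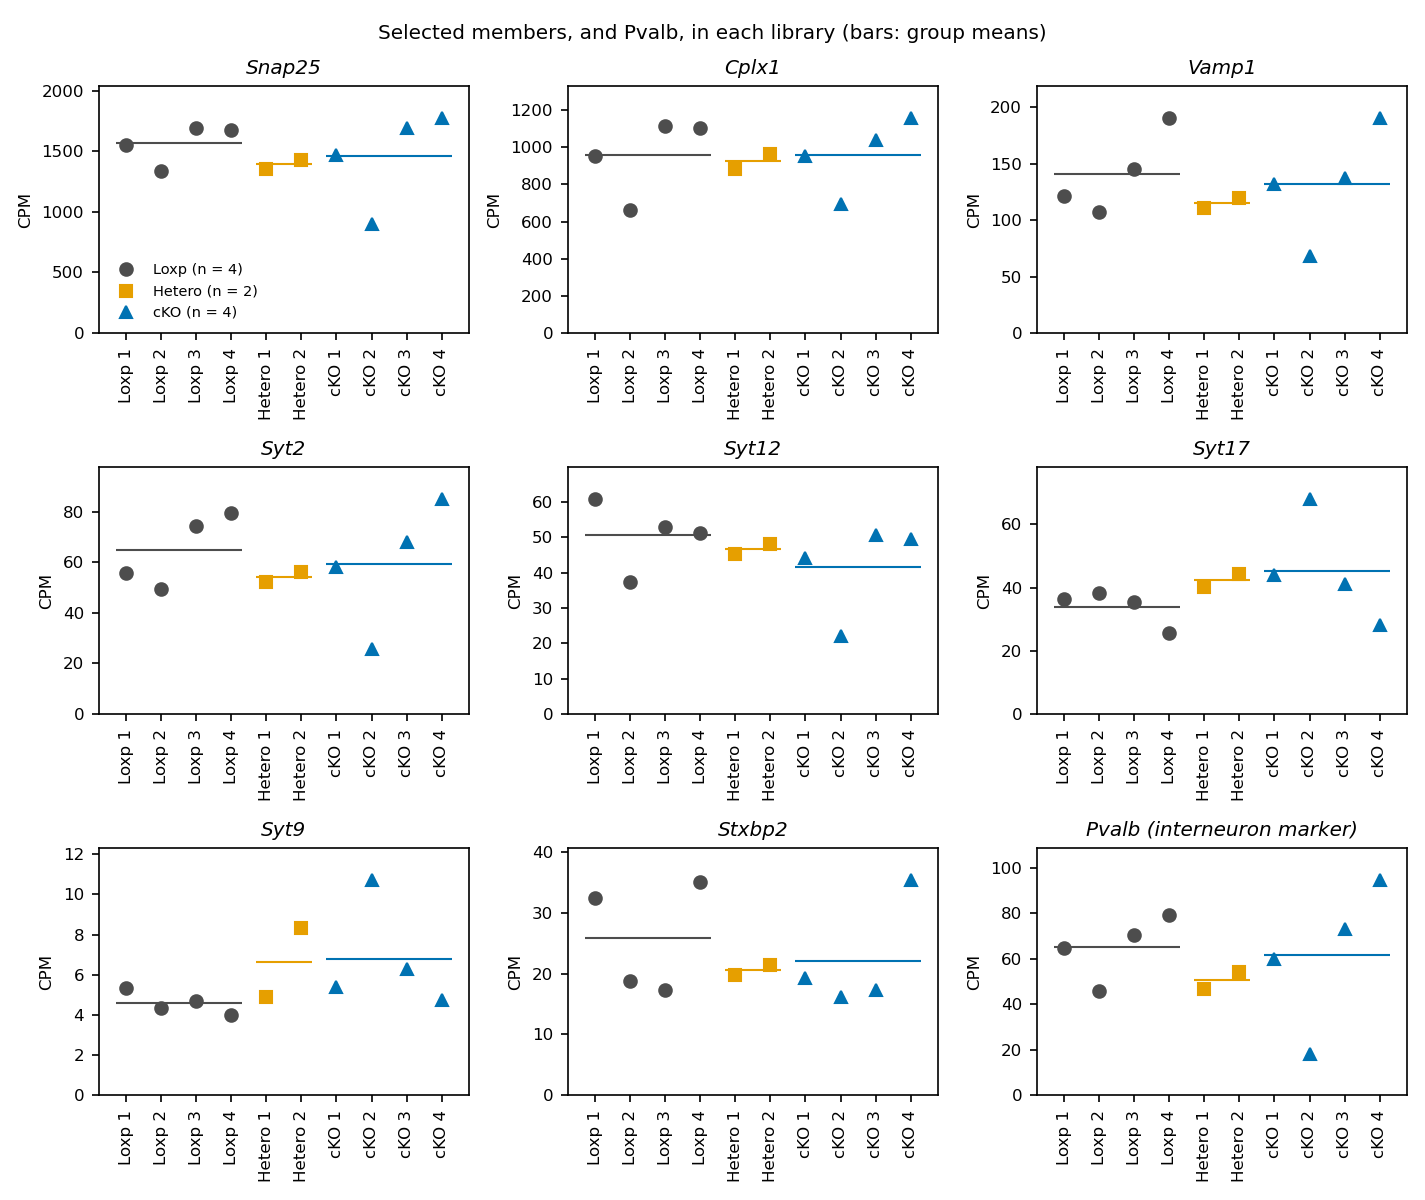
CPM in each of the 10 libraries for 8 members that varied within genotypes and for Pvalb, with horizontal bars at the group means and every vertical axis starting at 0. Snap25, Cplx1, Vamp1, Syt2 and Syt12 are low in cKO 2, as is Pvalb (18.1 CPM), while Syt17 and Syt9 are highest there (67.9 and 10.7 CPM).

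Ratios between paralogs in FPKM also differed between libraries of the same genotype. Vamp1 to Vamp2 was 0.022 in cKO 2 and 0.068 in Loxp 4, with a median of 0.042. Cplx1 to Cplx2 ran from 1.47 in Loxp 2 to 2.44 in cKO 4, and Snap25 to Snap47 from 1.36 in cKO 2 to 2.30 in cKO 4. Syn1 to Syn2 ran from 2.61 in cKO 2 to 3.97 in cKO 4.

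Promoters were read from RefSeq (GRCm38.p6), in windows from 250 bases before to 50 after the start, for 53 of 71 members with 68 promoters. Some genes with an entry were picked from those that varied widely within genotypes, and whether they vary together was not tested. They are shown by the 250 bases before the start, 5′ to 3′ on the strand of the gene: Syt2 at chr1:134646362-134646611 (plus strand), Vamp1 at chr6:125215331-125215580 (plus strand) and Cplx1 at chr5:108550028-108550277 (minus strand). Capitals in Syt2 mark a match, on the other strand, to TCAAGGTCA, the half-site AGGTCA of nuclear receptors with 3 further bases.
Syt2: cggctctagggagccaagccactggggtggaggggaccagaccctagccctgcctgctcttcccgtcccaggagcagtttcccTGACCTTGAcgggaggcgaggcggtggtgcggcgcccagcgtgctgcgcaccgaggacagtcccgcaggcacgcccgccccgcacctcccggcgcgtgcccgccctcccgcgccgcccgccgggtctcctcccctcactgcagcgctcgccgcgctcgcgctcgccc
Vamp1: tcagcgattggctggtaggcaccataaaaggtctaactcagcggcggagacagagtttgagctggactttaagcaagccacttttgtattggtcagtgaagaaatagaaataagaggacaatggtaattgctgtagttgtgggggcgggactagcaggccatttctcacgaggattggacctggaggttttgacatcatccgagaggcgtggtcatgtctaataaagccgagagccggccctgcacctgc
Cplx1: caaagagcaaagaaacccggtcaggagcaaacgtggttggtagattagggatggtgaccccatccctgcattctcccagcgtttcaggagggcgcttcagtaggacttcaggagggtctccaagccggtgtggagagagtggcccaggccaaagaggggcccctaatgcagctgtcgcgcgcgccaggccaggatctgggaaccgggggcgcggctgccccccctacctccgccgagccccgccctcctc

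The match in Syt2 lies 167 to 159 bases before the start. RefSeq gives Syt2 another start on the same strand, with 250 bases before it at chr1:134709050-134709299, and neither TCAAGGTCA nor AGGTCA was found in its window. TCAAGGTCA was found, on either strand, in 1 of 68 member promoters (1.47%) and in 0.423% of all 32851 promoters. The half-site AGGTCA, which it contains, was in 16.2% and 16.3%. Direct repeats of the half-site spaced by 1, 4 or 5 bases (AGGTCA, 1, 4 or 5 N, AGGTCA), the letters that heterodimers of retinoid X receptors are known to bind, were in 0 of 68 member promoters and in 0.0396%, 0.0152% and 0.00913% of all. The GC box GGGCGG was in 67.6% of member promoters and 35.7% of all, CACGTG (E-box) in 11.8% and 7.15%, and the cAMP response element TGACGTCA in 2.94% (Syn1 and Stxbp3) and 1.79%. A match is a description of letters only.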

How the data were processed

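RNA from 10 S1BF samples was sequenced, in libraries made with the NEBNext Ultra RNA kit. The authors deposited read counts per gene, for which the submitters' processing notes name featureCounts 1.5.0-p3 and the build mm10, and FPKM per gene and library. Neither the aligner, the annotation nor the strand setting is stated in the labels. The authors also deposited log2 fold changes and p-values of their own tests, read here beside the results.

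Members were matched by symbol. Counts were fitted in edgeR 4.0.16 (R 4.3.3) with TMM factors, filterByExpr, glmQLFit and glmQLFTest. All 10 libraries entered 1 fit with a mean per group, and p-values were adjusted by Benjamini-Hochberg over the 18455 genes tested, with a threshold of 0.05. The SE is the absolute log2 fold change divided by the square root of F, and 95% intervals use the fit's degrees of freedom. Log2 CPM used a prior count of 2. Exact permutation tests, two-sided on the difference in means, enumerated 70 (4 against 4) or 15 (4 against 2) arrangements. The scripts were tested on simulated data. Gene positions came from GENCODE M21 (GRCm38), where 71 of 71 members were found by ID.

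Named are the up to 2 members of highest mean FPKM in each role, the 8 members of smallest p per comparison with a mean log2 CPM above 0, and the 3 list genes of smallest p. Further members, described for their spread between libraries or for groups that do not overlap, were chosen after their values were seen. Of the members this rule names, 2 are not reported here singly, and they stay in the counts and medians. The members and lists were chosen with earlier results of these data known. Alternatives were DESeq2 1.42.0, limma-voom (limma 3.58.1), DESeq2 size factors, no filter, at least 1 CPM in 4 libraries, a fit of only the groups compared, a block for the replicate number, and each library left out.

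The replicate numbers of Loxp and cKO are not stated to mark a litter or batch.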

Additional observations from a re-analysis of the deposited data

Results flagged for a closer look

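In 82 groups of 4 libraries (41 named members in Loxp and in cKO), the gap of the highest or lowest library to its neighbour, as a share of the group's range, was compared with Dixon's critical value at the 95% level. Chance flags about 1 in 20 groups, or 4.1 here, and 7 were found. Highest and lowest are meant here within the 4 libraries of the genotype. Syt11 was highest in Loxp 3 (864 CPM, next 780 CPM, gap 0.849) and Syt4 highest in Loxp 2 (146 CPM, next 132 CPM, gap 0.898). Stx12 and Stx7, the endosomal syntaxins, were lowest in Loxp 4 (88.5 CPM, next 95.3 CPM, gap 0.888, and 103 CPM, next 111 CPM, gap 0.849). Rims1 was lowest in Loxp 1 (363 CPM, next 415 CPM, gap 0.882). Sv2b and Stx18 were lowest in cKO 2 (375 CPM, next 509 CPM, gap 0.841, and 23.1 CPM, next 23.5 CPM, gap 0.884). The gap of Stx18 lies in a narrow range, as its SD of log2 CPM within genotypes was 0.054.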

How the results depend on the processing

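The count of members past the adjusted p was 0 under all alternatives run. The median log2 fold change of the members was near 0 and changed sign under some alternatives in each comparison. It ran from -0.0265 to 0.00979 in cKO against Loxp, -0.0447 to 0.0188 in Hetero against Loxp and -0.0187 to 0.0377 in cKO against Hetero. The 0.0188, with the replicate number as a block, was the 1 move larger than the SD between libraries of a group of the members' mean log2 level (0.0436, 0.0390 and 0.0436, the larger of both groups). For the following correlations over genes, each gene's group mean was first subtracted from its log2 CPM. What remained correlated at 0.095, 0.20, 0.042 and 0.32 between Loxp and cKO libraries of the same number. Between these groups each library correlated best with that of its own number, a hint from the data that the design does not state. Hetero 1 and Hetero 2 correlated at -0.026 and -0.0081 with the Loxp library of the same number. With the cKO library of the same number they correlated at 0.023 and -0.015. With 2 libraries in the group, what remains of Hetero 1 mirrors Hetero 2 exactly, so the pair gives no separate observations. With the block 0 members passed, and 4, 1 and 2 members had an unadjusted p under 0.05 in the comparisons of cKO with Loxp, Hetero with Loxp and cKO with Hetero. Without the block there were 2, 0 and 0, and over all alternatives 0 to 4, 0 to 2 and 0 to 2. The share of all genes at that p was taken for the main fit only. The counts under the alternatives therefore cannot be read as a result about the members.

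Single log2 fold changes were followed through the alternatives for some members only, so members not listed here may also have changed sign. Of those followed, the log2 fold changes of cKO against Loxp that changed sign are given with their range when each library was left out: Snap25 -0.209 to 0.0749, Cplx1 -0.140 to 0.133, Vamp1 -0.326 to 0.120, Syt2 -0.355 to 0.120, Syt1 -0.0481 to 0.103, Vamp2 -0.0601 to 0.00446, Stx1a -0.0354 to 0.0851, Unc13a -0.0569 to 0.0511, Rims1 -0.0535 to 0.0473, Syn1 -0.0219 to 0.0845 and Sv2a -0.0654 to 0.0279, and for Unc13c in cKO against Hetero -0.0292 to 0.309. Rims1 was 0.00262 with no low-count filter, 0.00183 with 1 CPM in 4 libraries and 0.000318 with only the groups compared. The cause was not tested. The number of all genes called differed: without the filter 32 in cKO against Loxp, 68 in Hetero against Loxp and 39 in cKO against Hetero, with DESeq2, in that order, 0, 11 and 3, with the block 1, 1 and 0, 15 (Hetero against Loxp) and 14 (cKO against Hetero) when Hetero 1 was left out, and 1 (cKO against Loxp) when cKO 2 was. Depth limits members of under 1 FPKM, such as Vamp5 with 35 to 58 counts in Loxp and cKO libraries.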
